A study of Caenorhabditis elegans with 16 samples.

Results

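The autosome centers of chromosomes II, III, IV and V of Caenorhabditis elegans held 9871 of the 29131 accessible regions (33.9%) measured by ATAC-seq in L1 larvae. A region was counted as a center region when its midpoint lay between 4880000 and 12020000 on chromosome II, between 3720000 and 10340000 on III, between 3900000 and 12970000 on IV, or between 5900000 and 16550000 on V (WBcel235). Position alone chose the regions, and no measured value entered the choice. Larvae of 4 groups, with 4 libraries each, were compared. RPOA-2 depleted larvae carried rpoa-2::degron and eft-3p::tir-1 and were collected after 24 h, and RPOA-2 undepleted larvae carried rpoa-2::degron alone and were collected after 18 h. GRWD-1 depleted larvae carried the rrb-1::degron allele and eft-3p::tir-1 and were collected after 24 h, and GRWD-1 undepleted larvae carried rrb-1::degron alone and were collected after 18 h. The labels name GRWD-1 as RRB-1. All larvae, undepleted ones included, were held at 23 °C in 1 mM auxin and carried a degron tag. In each depletion the loss of the protein comes together with the tir-1 transgene, another strain and later collection, which cannot be told apart. Larvae of 1 strain were grown together and divided into its 4 replicates, so that the p-values cover the spread between these libraries and not between separate growths.

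In ATAC-seq the Tn5 transposase cuts and tags DNA that is not covered by nucleosomes or other proteins, and reads pile up at active promoters and enhancers. Auxin recruits degron-tagged proteins to the plant F-box protein TIR1, which has them degraded. RPOA-2 is a catalytic core subunit of RNA polymerase I, which transcribes the ribosomal RNA genes, and GRWD-1 is a chaperone of ribosome assembly. The chromosomes of C. elegans have no single centromere, and each autosome has a gene-rich center, where crossovers are rare and conserved and essential genes are common, between 2 arms, where repeats, fast-evolving gene families and the H3K9 methylation of heterochromatin are common.

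The centers were denser in accessible regions than the arms of the same chromosomes. They held 294.8 regions per Mb, against 255.8 per Mb in the arms, and the order was the same on all 4 chromosomes: 314.7 against 296.3 on II, 334.9 against 271.2 on III, 272.3 against 220.6 on IV and 275.8 against 241.6 on V. Counted per protein-coding gene the order turned round, with 1.23 regions per gene in the centers and 1.37 in the arms, since the centers held 8005 protein-coding genes in 33.48 Mb and the arms 6359 genes in 34 Mb. Along the centers the count varied within each chromosome, between 80 and 230 regions per 500 kb. On III, the densest center, the lowest 500 kb had 135 regions, and on IV and V the lowest had 83 and 80. Regions on both sides of the boundaries had levels in the same range. The 8 regions just inside the boundaries, at 0.88 to 17.02 kb from them, had a mean level of 8.64 to 53.6 CPM, and the 8 just outside, at 3.70 to 20.4 kb, had 7.03 to 42.5 CPM. CPM is the read count of a region scaled to the library size with the TMM factors of edgeR.

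**Figure D1:**
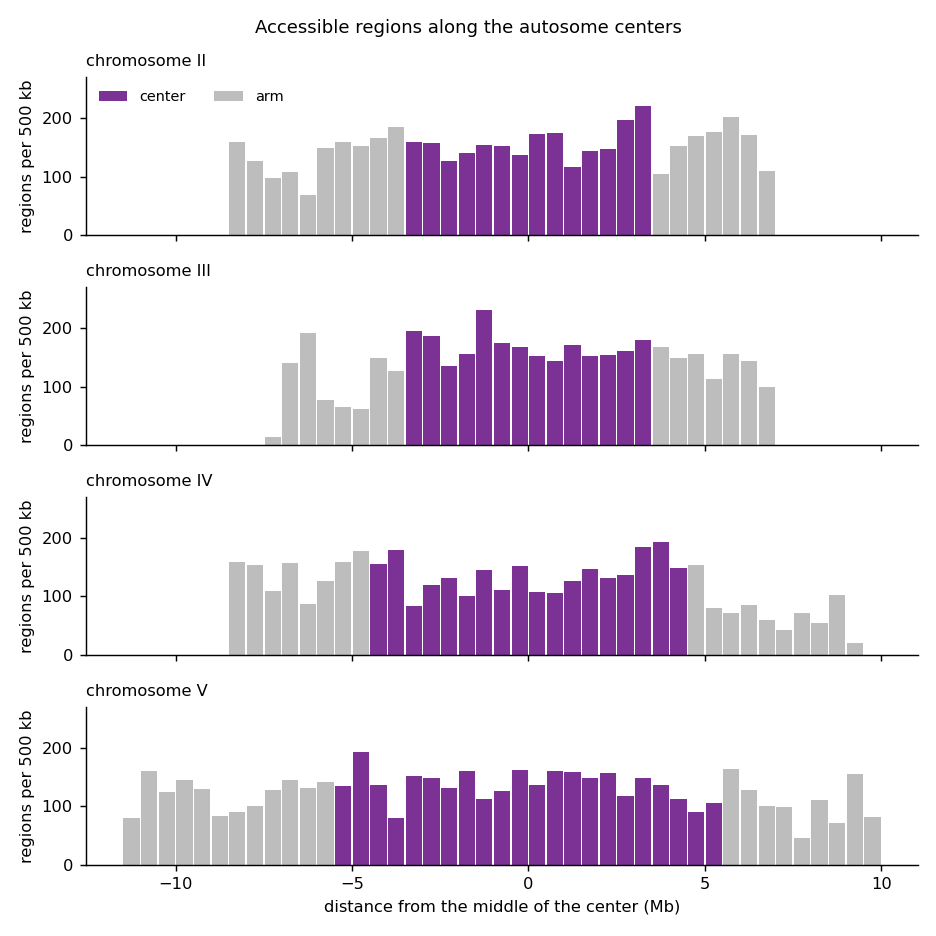
Number of accessible regions per 500 kb (vertical axis) against distance from the middle of the center in Mb (horizontal axis) on chromosomes II to V. Purple bars are bins in the centers and grey bars are bins in the arms, and the center bins run from 80 to 230 regions.

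Center regions lay closer to genes than arm regions did. The midpoint of 40.7% of them lay within 500 bp of a transcript 5′ end, called promoter regions here, against 35.2% in the arms. A further 32.2% lay in exons in the centers, against 27.9% in the arms. Introns held 14.1% of the center regions and 20.9% of the arm regions, and the remainder between genes was 13% in the centers and 16.0% in the arms. The center of V had the highest share of promoter regions, 45.7%, and that of III the lowest, 36.0%. In length and level the centers resembled the arms, with a median length of 378 bp in the centers against 382 bp in the arms, and a median level of 19.2 CPM against 20.4 CPM. These are descriptions of the peak set, on which no test was run.

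The center regions with the most reads per kb were a mixed group. The highest, from 11759179 to 11759786 on II with 317.1 CPM per kb, lies between F44E5.4 and F44E5.5, a divergent pair of genes of the Hsp70 chaperone family. The sequences of the pair are alike, so reads could be placed at either copy and the value is uncertain. It increased upon RPOA-2 depletion (log2 fold change 0.63, ± 0.158 standard error, edgeR adjusted p = 0.014), with overlapping groups, and GRWD-1 depletion gave 0.27 (edgeR adjusted p = 0.546). The others were a region on II at the small gene C17C3.23 and ins-13, an insulin-like peptide gene (305.6 CPM per kb), one on V at a tRNA gene and gcy-33, a guanylate cyclase gene (256.1), one in an intron of C35B1.2 on IV (241.1) and one upstream of pptr-1, a regulatory subunit of protein phosphatase 2A, on V (237.8). The lowest, from 8399762 to 8399924 on IV, had 19.4 CPM per kb. Broad regions of 2 kb or more numbered 214. The longest covered 15954 bp on V across 25 annotated genes of T28B11, followed by 12417 bp over mnk-1 and pro-1 and 10891 bp over egl-27, both on II. None of these 3 was called in a depletion.

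The libraries held between 2337415 and 13010378 reads in regions, of which between 763701 and 4181942 fell in center regions. The share ran from 31.95% to 33.38% over the 16 libraries. In RPOA-2 depleted larvae the centers took 32.5, 33.1, 32.7 and 32.7% of the reads in replicates 1 to 4, against 32.0, 32.7, 32.5 and 32.2% in RPOA-2 undepleted larvae. The groups overlapped, and the means of 32.74 ± 0.25% and 32.34 ± 0.33% (SD, n = 4 each) differed by 0.41 percentage points (p = 0.114, exact permutation test, two-sided, all 70 groupings). The smallest p that 4 against 4 libraries can give is 0.0286. In GRWD-1 depleted larvae the shares were 32.1, 33.0, 32.9 and 32.4%, against 32.3, 33.4, 32.7 and 32.6% in GRWD-1 undepleted larvae, a difference of -0.17 percentage points between overlapping groups (p = 0.60, the same exact permutation test). Replicate 1 had the lowest share in all 4 groups and replicate 2 the highest. Within replicate numbers 1 to 4 the RPOA-2 difference was 0.535, 0.373, 0.214 and 0.5 percentage points, always above 0. An exact test over flipped signs gave p = 0.125, the smallest that 4 pairs can give. For GRWD-1 the differences were -0.165, -0.424, 0.141 and -0.247 (p = 0.25, exact test over flipped signs).

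**Figure D2:**
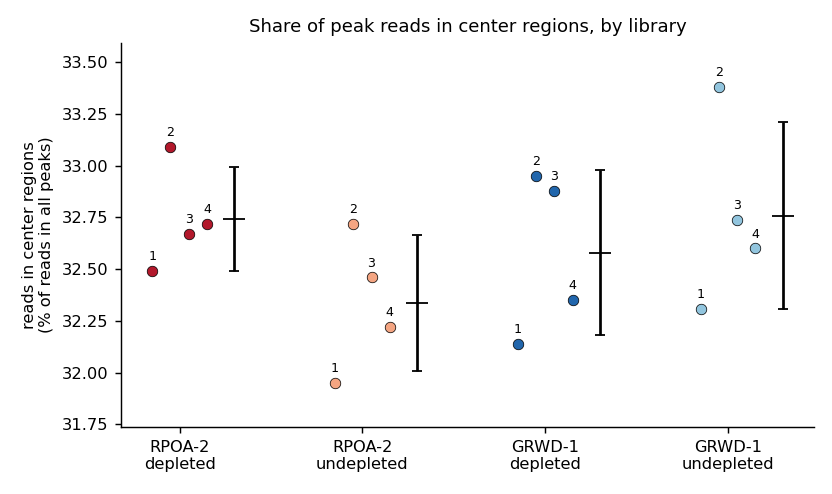
Share of the reads in all regions that fell in center regions (vertical axis, percent, not starting at 0) for each library, with the replicate number above each point. The bars beside the points give the mean and SD of the 4 libraries of a group, and the groups overlap, between 31.95% and 33.38%.

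Set against the arms of the same chromosome, no difference of the centers passed a test in either depletion. The tests took no account of replicate number, so variation by number stays in their spread. They cannot show that the centers did not move. On V, where the centers stood highest over the arms, the log2 ratio of center reads to arm reads was 0.37, 0.51, 0.44 and 0.39 in RPOA-2 depleted larvae, against 0.33, 0.49, 0.42 and 0.43 in RPOA-2 undepleted larvae. Upon GRWD-1 depletion it was 0.36, 0.55, 0.48 and 0.45, against 0.44, 0.61, 0.46 and 0.49 in GRWD-1 undepleted larvae. In all 4 groups replicate 1 had the lowest ratio on V and replicate 2 the highest. The ratios were not tested within replicate numbers. The depleted group minus the undepleted group was between -0.0051 and 0.0233 for RPOA-2 over the 4 chromosomes and between -0.0474 and -0.0225 for GRWD-1, and none of the 8 exact permutation tests gave a p under 0.429 before adjustment. The median log2 fold change per region was -0.0028 in the centers and 0.019 in the arms upon RPOA-2 depletion, and -0.013 in the centers and 0.047 in the arms upon GRWD-1 depletion.

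Changes at single regions were few. In this fit increases outnumbered decreases upon RPOA-2 depletion and decreases outnumbered increases upon GRWD-1 depletion, a balance that turned round in some other fits given after the counts. Differentially accessible regions (DARs) are those with a Benjamini-Hochberg adjusted p under 0.05 in the quasi-likelihood test of edgeR, over all 29131 regions, of which 1.69% were called in either direction upon RPOA-2 depletion and 1.38% upon GRWD-1 depletion. Upon RPOA-2 depletion 111 center regions increased, 1.12% of 9871, where 1.2% of all regions of the series did. Another 61 decreased, 0.618%, beside 0.487% in the series. Upon GRWD-1 depletion 61 center regions increased, 0.618%, where the series gave 0.57%, and 106 decreased, 1.07%, beside 0.81% in the series. The arms of II to V had 95 increases and 29 decreases (1.09% and 0.334%) upon RPOA-2 depletion and 47 increases and 36 decreases (0.541% and 0.414%) upon GRWD-1 depletion. On X 1.34% of the regions increased and 0.578% decreased upon RPOA-2 depletion, and 0.715% and 1.17% upon GRWD-1 depletion. Chromosome I had 0.384% and 0.533% decreased. The share of decreases in the centers was thus near that on X and not particular to the centers. Of the decreased DARs of the series, 43.0% upon RPOA-2 depletion and 44.9% upon GRWD-1 depletion lay in the centers, which held 33.9% of the regions. Regions near each other are not independent, and whether this share departs from that of all regions was not tested. In CPM, all 4 depleted libraries lay above all 4 undepleted ones at 222 center regions (2.25%) and below them at 302 (3.06%) upon RPOA-2 depletion, where 2.13% and 2.49% of all regions did. Upon GRWD-1 depletion they lay above at 124 (1.26%) and below at 285 (2.89%), where 1.76% and 2.12% of all regions did, and the arms had 234 above and 93 below. Of the DARs, 59 of 111 increases and 44 of 61 decreases upon RPOA-2 depletion and 16 of 61 increases and 70 of 106 decreases upon GRWD-1 depletion had their groups apart in this way.

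These counts depended on how unwanted variation was treated and on single libraries. Without the 2 factors of unwanted variation in the fit 5 center regions increased and 9 decreased upon RPOA-2 depletion and 5 increased and 14 decreased upon GRWD-1 depletion, all of them also called with the factors. Without the library of RPOA-2 depleted replicate 2 the counts were 6 and 9 for RPOA-2 and 9 and 32 for GRWD-1, and without that of RPOA-2 depleted replicate 1 the RPOA-2 increases numbered 198. The balance of directions moved as well. Decreases outnumbered increases for RPOA-2 in the fit without factors, and also without RPOA-2 undepleted replicate 1 (25 increases and 40 decreases) or replicate 3 (23 and 24), while increases outnumbered decreases for GRWD-1 without GRWD-1 depleted replicate 2 (41 and 36). Called in all 16 fits that left out a library were 5 increases and 6 decreases upon RPOA-2 depletion and 7 increases and 16 decreases upon GRWD-1 depletion. The calls made also without the factors upon RPOA-2 depletion were increases at sahd-1, at F10E7.11 and at 3 regions of fdgt-2 and F14E5.8, and decreases at lin-4, sqt-1, dpy-13, nlp-33, sqt-3, mir-48, 2 regions of col-10 and 1 beside mir-241. Upon GRWD-1 depletion they were increases at 4 regions of fdgt-2 and F14E5.8 and at kvs-3, and decreases at 2 regions of lin-4, at K03H9.10, a tRNA gene pair in unc-104, sqt-1, dpy-13, his-59, col-125, his-7, col-144, col-10, sqt-3, mir-241 and beside mir-241. Calls of the depletions against their undepleted strains that are named in what follows and not listed here were not made in the fit without factors.

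**Figure D3:**
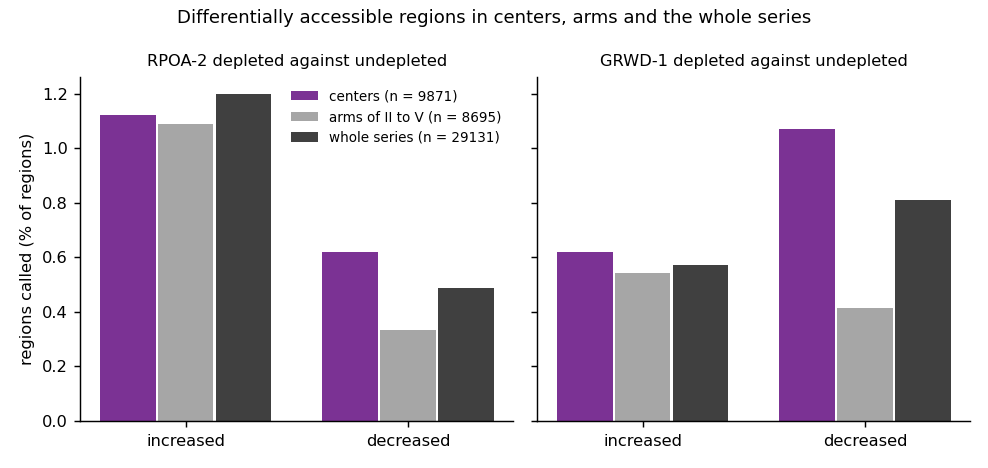
Percent of regions called as increased or decreased (vertical axis) in RPOA-2 depleted against undepleted larvae (left panel) and GRWD-1 depleted against undepleted larvae (right panel), for the centers (purple), the arms of II to V (light grey) and the whole series (dark grey). The bars for decreased regions are higher for the centers, 0.618% and 1.07%, than for the arms, 0.334% and 0.414%. The X chromosome, which is not drawn, had 0.578% and 1.17%.

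Upon RPOA-2 depletion the direction of the calls differed with the place of a region relative to genes, which was not tested. In the centers 57 promoter regions increased and 27 decreased, of 4020 (1.42% and 0.672%). Between genes 35 increased and 7 decreased, of 1283 (2.73% and 0.546%). In exons 7 increased and 21 decreased, of 3177 (0.22% and 0.661%). The same order held in the whole series, so it was not particular to the centers. There 174 promoter regions increased and 61 decreased, of 11105 (1.57% and 0.549%). Between genes the series had 122 and 15 of 4351 (2.8% and 0.345%), and in exons 15 and 46 of 8545 (0.176% and 0.538%). Upon GRWD-1 depletion 36 center promoter regions increased and 63 decreased (0.896% and 1.57%). In exons of the centers 2 increased and 12 decreased (0.063% and 0.378%), and between genes 16 and 19 (1.25% and 1.48%). The whole series had 94 and 134 promoter regions (0.846% and 1.21%) upon GRWD-1 depletion. It had 12 and 23 in exons (0.14% and 0.269%) and 45 and 41 between genes (1.03% and 0.942%). Calls were also more frequent in longer regions, which hold more reads. Of the 3484 center regions of up to 250 bp, 4 increased and 3 decreased upon RPOA-2 depletion (0.115% and 0.0861%). Of the 803 of 1 to 2 kb, 16 increased and 22 decreased (1.99% and 2.74%), where 1.2% and 0.487% of all regions did.

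Of all regions 1.2% increased and 0.487% decreased upon RPOA-2 depletion, and 0.57% and 0.81% upon GRWD-1 depletion. By chromosome, the center of III had the most increases upon RPOA-2 depletion and the fewest decreases, 33 and 7 of 2217 regions (1.49% and 0.316%). The arms of III leaned the same way, with 23 increases and 2 decreases of 1943, so this was not particular to the center. The center of V had 26 and 23 of 2937. The center of II had 26 and 17 of 2247, and that of IV 26 and 14 of 2470. Upon GRWD-1 depletion the center of II had 13 increases and 36 decreases, III had 9 and 10, IV had 16 and 30, and V had 23 and 30. Differences between the chromosomes were not tested.

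The largest increases common to both depletions lay side by side in 4 regions on chromosome II between 8418614 and 8421468, which cover the end of fdgt-2 and the start of F14E5.8. The first, from 8418614 to 8419890, overlaps the 3′ end of fdgt-2. It had 71.8, 67.5, 83.1 and 93.2 CPM in RPOA-2 depleted larvae, against 30.4, 30.2, 30.6 and 28.5 CPM in RPOA-2 undepleted larvae, and 68.4, 71.8, 73.0 and 98.5 CPM in GRWD-1 depleted larvae, against 29.4, 29.0, 31.1 and 35.1 CPM in GRWD-1 undepleted larvae. Every depleted library lay above every undepleted one, and the levels of the 2 depleted strains overlapped. The log2 fold changes were 1.40 (± 0.101 standard error, edgeR adjusted p = 1.08e-19) for RPOA-2 and 1.30 (± 0.0943 standard error, edgeR adjusted p = 9.7e-20) for GRWD-1. The other 3 regions, all within F14E5.8, rose by 1.00 to 1.19 upon RPOA-2 depletion and by 1.13 to 1.22 upon GRWD-1 depletion on the log2 scale, with depleted and undepleted libraries apart in each. No further DAR lay within 10 kb of the run. The increase goes with the strains that carry tir-1, and the insertion site of that transgene is not given in the sources used here, so the loss of the protein and the strain cannot be told apart here.

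The region over eft-3, the elongation factor gene whose promoter drives tir-1 and which the annotation names eef-1A.1, is a center region on III, from 6969946 to 6972381. It had 204, 234.6, 201 and 201 CPM in RPOA-2 depleted larvae, against 163, 193, 167 and 180.3 CPM in RPOA-2 undepleted larvae. Upon GRWD-1 depletion it had 188, 233, 201 and 179 CPM, against 170, 174, 184 and 161 CPM in GRWD-1 undepleted larvae. Both RPOA-2 groups stood apart and both GRWD-1 groups overlapped, and neither difference passed the test (log2 fold changes 0.23 and 0.20, adjusted p = 0.0973 and 0.164, edgeR).

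A single region differed between the 2 depletion effects. It lies on V from 9317893 to 9318644, over the start of kvs-3, a gene for a voltage-gated potassium channel subunit, a tRNA gene and the small gene F44A2.10. It had 66.1, 79.9, 91.5 and 82.7 CPM in GRWD-1 depleted larvae, from 230 to 1102 reads a library. The 4 GRWD-1 undepleted libraries had 0.28, 0, 0 and 0 CPM, the RPOA-2 depleted libraries 0, 0, 0.84 and 0, and the RPOA-2 undepleted libraries 0, 0.60, 0.53 and 0. The 12 libraries of the other 3 groups held 10 reads in all, where no other center region had fewer than 196 in those 12 libraries. Taking 3 reads per library as the floor, the level in GRWD-1 depleted larvae was at least 141-fold higher than that of GRWD-1 undepleted larvae and at least 112-fold higher than that of RPOA-2 depleted larvae. The test of the difference between both effects, which called 0.0103% of all regions, gave an edgeR adjusted p of 1.67e-06 (log2 difference -11.1), a call that was lost without the library of RPOA-2 undepleted replicate 2. With so few reads elsewhere, the region entered the merged peak set through the GRWD-1 depleted libraries. Its p-value and fold floors follow from that entry and are no separate support. At an unadjusted p under 0.05 the effects differed at 585 center regions (5.93%), beside 5.8% of all regions. Reads were nearly absent from 3 strains and present in 1, and depletion and strain cannot be told apart at this region.

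Other increases were smaller. The promoter region of F10E7.11 on II, from 7122682 to 7123437, had 53.9, 90.8, 63.9 and 64.2 CPM in RPOA-2 depleted larvae, against 32.1, 41.3, 40.96 and 44.1 CPM in RPOA-2 undepleted larvae, and its log2 fold change was 0.77 (± 0.103 standard error, edgeR adjusted p = 6.6e-08). Upon GRWD-1 depletion it rose by 0.52 (edgeR adjusted p = 0.000138), there with overlapping groups. In an intron of sms-1, a sphingomyelin synthase gene, on IV, both depletions gave an increase of 0.52 and 0.51, with all depleted libraries above their undepleted ones in each.

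**Figure D4:**
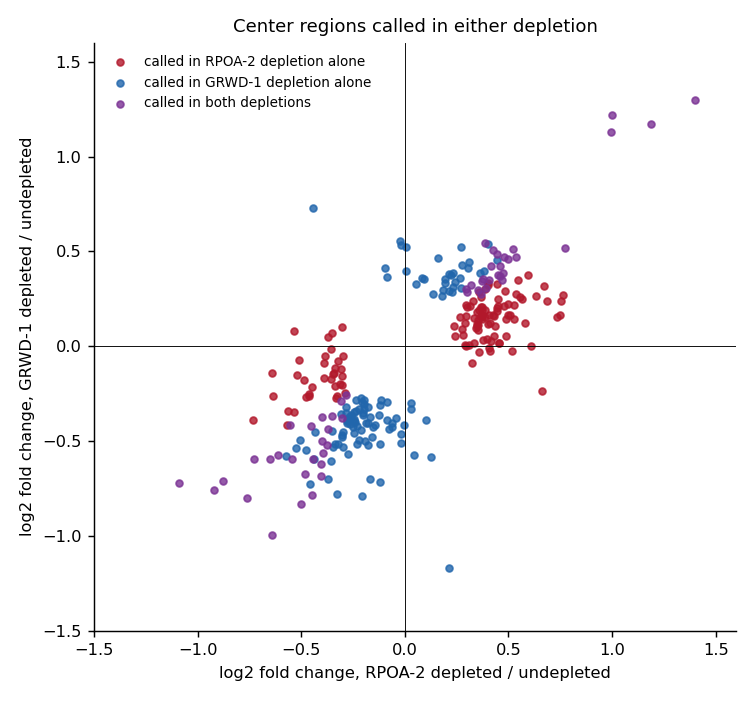
Log2 fold change upon RPOA-2 depletion (horizontal axis) against that upon GRWD-1 depletion (vertical axis) for the center regions called in either, coloured by the depletion in which they were called. Of 286 regions 285 are drawn, and the kvs-3 region, at 9.61 on the vertical axis, lies outside the axes. The 4 points at the upper right, at 1.00 to 1.40 and 1.13 to 1.30, are the regions of fdgt-2 and F14E5.8.

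Both depletions moved the called regions mostly the same way. Of the 111 regions increased upon RPOA-2 depletion 27 were also increased upon GRWD-1 depletion, 24.3% of the RPOA-2 list and 44.3% of the 61 in the GRWD-1 list. Decreased in both were 26 regions, 42.6% of the 61 for RPOA-2 and 24.5% of the 106 for GRWD-1. In the series 0.233% of all regions increased in both and 0.209% decreased in both. No center region was called in opposite directions. Read in the other depletion, 105 of the 111 increased RPOA-2 regions were positive for GRWD-1, with a median of 0.20 beside 0.41 for RPOA-2 itself, and 57 of the 61 decreased ones were negative, with a median of -0.27 beside -0.40. The 2 depletions share no libraries, but both set a strain with tir-1 at 24 h against one without it at 18 h, and they were fitted together. The share of all regions with the same sign in both was not counted. How the counts of same-sign DARs stand against it is thus not known.

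Decreases in both depletions fell on genes for the collagens of the cuticle, the extracellular coat that the epidermis makes anew before each molt. Of the 80 center regions nearest to a collagen gene, 12 decreased and 0 increased upon RPOA-2 depletion and 15 decreased and 0 increased upon GRWD-1 depletion, where 0.487% and 0.81% of all regions decreased. The list had a median of -0.13 upon RPOA-2 and -0.071 upon GRWD-1 depletion, beside 0.0036 and 0.0058 over all regions. At col-10 on V the promoter region, from 9164887 to 9165767, had 41.8, 35.3, 32.2 and 36.0 CPM in RPOA-2 depleted larvae, against 58.7, 66.5, 72.4 and 72.7 CPM in RPOA-2 undepleted larvae. In GRWD-1 depleted larvae it had 41.3, 41.9, 49.1 and 44.6 CPM, against 70.2, 105.7, 65.9 and 51.7 CPM in GRWD-1 undepleted larvae. The groups did not overlap in either depletion, and the region fell by 0.92 (± 0.113 standard error, edgeR adjusted p = 7.32e-09) and by 0.76 (± 0.0999 standard error, edgeR adjusted p = 4.89e-08) on the log2 scale. The region after it, from 9163869 to 9164412 over the 3′ untranslated region of col-10, had the largest fall of the center regions upon RPOA-2 depletion, to 11.3, 10.7, 11.3 and 17.4 CPM, against 22.3, 29.9, 22.9 and 28.2 CPM in RPOA-2 undepleted larvae.

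The collagens of the body shape genes fell likewise. The promoter region of sqt-1 on II, from 11337713 to 11337943, had 8.98, 10.3, 10.4 and 10.4 CPM in RPOA-2 depleted larvae, against 16.6, 15.6, 18.9 and 19.4 CPM in RPOA-2 undepleted larvae, and fell by 0.76 (± 0.169 standard error, edgeR adjusted p = 0.0039). Upon GRWD-1 depletion it had 9.67, 6.58, 8.80 and 7.91 CPM, against 12.6, 16.0, 14.6 and 15.9 CPM, and fell by 0.80 (± 0.155 standard error, edgeR adjusted p = 0.000533). Depleted and undepleted libraries were apart in both, which was a condition for naming a region by size of change. At dpy-13 on IV the falls were 0.61 and 0.58, at sqt-3 on V 0.54 and 0.60, and at rol-6 on II, named after its values were seen, 0.35 and 0.37, with the groups apart in each. The regions of dpy-13, sqt-1, sqt-3 and col-10 were called in both depletions also without the factors, while that of rol-6 was not.

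Epidermal marker genes other than collagens lay at few center regions. Of the 8 regions nearest to the 4 epidermal marker genes with a center region, 2 decreased in each depletion, dpy-13 and rol-6, both of them collagens. The summed level of the 3 promoter regions among them was 65.4 to 81.0 CPM in RPOA-2 depleted larvae, against 79.7 to 90.2 CPM in RPOA-2 undepleted larvae, and 67.0 to 76.5 CPM in GRWD-1 depleted larvae, against 80.7 to 91.6 CPM in GRWD-1 undepleted larvae. Regions nearest to body-wall muscle, pharyngeal muscle, intestine and germline markers, 4, 3, 2 and 2 in number, had no DARs in either depletion. Of the 15 nearest to neuron markers 1 increased upon RPOA-2 depletion. With 1.69% and 1.38% of all regions called, the lack of calls in so few regions is no result about these tissues. Counted by overlap with the marker gene, 1 of 29 body-wall muscle regions increased upon GRWD-1 depletion. In whole larvae fewer epidermal nuclei and less access per nucleus cannot be told apart. Among the 15 regions nearest to yolk and sperm genes, whose products L1 larvae do not make, none was called. One neuropeptide region decreased with the collagens, that of nlp-33 on V, a gene of the antimicrobial peptide kind that the epidermis expresses, by 0.65 for RPOA-2 and 0.60 for GRWD-1 with the groups apart in both.

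Regions at the microRNA genes lin-4, mir-48 and mir-241 decreased in 1 or both depletions, while some regions at other microRNA genes increased. lin-4 and the let-7 relatives mir-48 and mir-241 are small RNAs that repress the genes of early larval fates. At lin-4, inside F59G1.4 on II, the region from 5901167 to 5902481 had 101, 110, 94.8 and 94.0 CPM in RPOA-2 depleted larvae, against 134, 167, 158 and 152 CPM in RPOA-2 undepleted larvae. In GRWD-1 depleted larvae it had 87.4, 85.6, 83.1 and 74.4 CPM, against 164, 186, 164 and 144 CPM in GRWD-1 undepleted larvae. The groups were apart in both, and the region fell by 0.64 (± 0.0794 standard error, edgeR adjusted p = 9.02e-09) and by 1.00 (± 0.0758 standard error, edgeR adjusted p = 1.32e-18). The 2 shorter regions just before it, from 5900541 and from 5900779, fell by 0.78 and 0.58 upon GRWD-1 depletion, and had -0.33 and -0.57 upon RPOA-2 depletion, where neither passed the test.

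At the mir-48 and mir-241 locus on V, 3 regions between 14364438 and 14369002 decreased. The region over mir-48 had 23.6, 23.5, 19.6 and 27.5 CPM in RPOA-2 depleted larvae, against 33.0, 40.0, 46.3 and 55.5 CPM in RPOA-2 undepleted larvae, with no overlap (log2 fold change -0.74, ± 0.129 standard error, edgeR adjusted p = 7.8e-05). Upon GRWD-1 depletion it had 26.5, 20.4, 29.5 and 23.4 CPM, against 27.5, 25.9, 39.3 and 49.1 CPM, and -0.39 did not pass (edgeR adjusted p = 0.0781). The region over mir-241, from 14366205 to 14367212, fell by 0.50 and 0.83 and the intergenic one after it by 0.88 and 0.71 for RPOA-2 and GRWD-1. Over all 42 center regions nearest to a microRNA gene 2 increased and 2 decreased upon RPOA-2 depletion and 1 increased and 2 decreased upon GRWD-1 depletion, with medians of 0.053 and -0.064, so most regions of the class were not called. By the nearest transcript 5′ end, the regions of lin-4 and mir-241 count under the neighbouring genes F59G1.12 and F56A12.8. Counted by overlap with the microRNA gene, 4 of 33 regions decreased in each depletion, while 3 increased upon RPOA-2 depletion and 2 upon GRWD-1 depletion. Over the whole series 1.2% of regions increased and 0.487% decreased upon RPOA-2 depletion, and 0.57% and 0.81% upon GRWD-1 depletion.

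**Figure D5:**
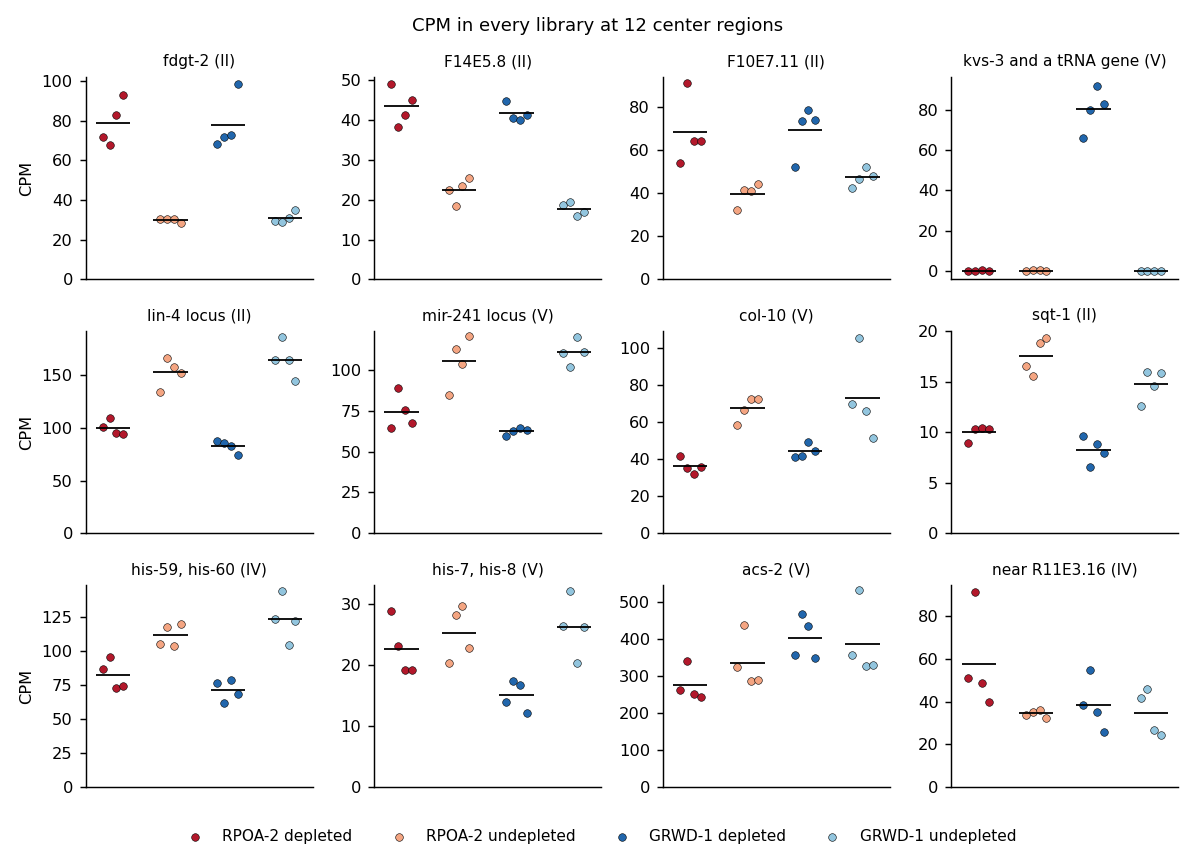
CPM in every library (points) and group mean (line) at 12 center regions, with the chromosome in brackets and each vertical axis on its own scale. Red and light red are RPOA-2 depleted and undepleted larvae, dark and light blue GRWD-1 depleted and undepleted larvae. The 4 groups separate by depletion at fdgt-2, F14E5.8, lin-4, col-10 and sqt-1, and the kvs-3 region has reads only in GRWD-1 depleted larvae apart from 10 reads in the 12 other libraries.

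Regions at core histone genes, whose products DNA replication calls for, decreased in greater number upon GRWD-1 depletion. Of the 9 center regions nearest to a histone gene 7 decreased upon GRWD-1 depletion and 2 upon RPOA-2 depletion, and none increased. Their medians were -0.48 upon GRWD-1 depletion and -0.16 upon RPOA-2 depletion. Of all regions 0.81% decreased upon GRWD-1 depletion and 0.487% upon RPOA-2 depletion. Counted by overlap with a histone gene, 7 of 11 regions decreased and 1 increased upon GRWD-1 depletion, and 2 decreased upon RPOA-2 depletion. At his-59 and his-60 on IV, from 7487516 to 7488845, GRWD-1 depleted larvae had 76.9, 62.2, 78.7 and 68.3 CPM, against 124, 145, 105 and 122 CPM in GRWD-1 undepleted larvae, a fall of 0.78 (± 0.0841 standard error, edgeR adjusted p = 3.59e-11). RPOA-2 depleted larvae had 87.2, 95.6, 73.1 and 74.3 CPM, against 105, 118, 104 and 120.2 CPM in RPOA-2 undepleted larvae, a fall of 0.45 (± 0.0895 standard error, edgeR adjusted p = 0.000805). At his-7 and his-8 on V the region from 8533055 to 8533425 had 13.98, 17.3, 16.7 and 12.2 CPM in GRWD-1 depleted larvae, against 26.5, 32.2, 20.4 and 26.3 CPM in GRWD-1 undepleted larvae, a fall of 0.79 (± 0.128 standard error, edgeR adjusted p = 1.4e-05), and RPOA-2 depletion gave -0.21 (edgeR adjusted p = 0.589). The groups were apart at both regions upon GRWD-1 depletion. None of the 9 differed between the 2 depletion effects by the test of that difference, which at his-7 gave 0.58 (edgeR adjusted p = 0.652). Histone genes of a type are near copies of each other, so the share of reads each one kept is uncertain.

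Set directly against each other, the 2 depleted strains differed at 17 center regions, 14 of them higher with RPOA-2 depleted and 3 lower. Of all regions 0.0996% were higher and 0.0309% lower, or 0.13% in either direction. Without the factors 1 of these 17 was left, and without RPOA-2 depleted replicate 2 also 1. With 3 factors 3 center regions were called, of which 2 were among the 17. The histone regions at his-7 (log2 difference 0.64, edgeR adjusted p = 0.0235) and at his-61 and his-62 (0.37, edgeR adjusted p = 0.0286) were among the higher, as was a region upstream of lin-13, a zinc finger gene of the synMuv B class of repressors (0.37, edgeR adjusted p = 0.0235). An intergenic region on IV, from 4783769 to 4784286, had 51.1, 91.2, 48.9 and 39.8 CPM in RPOA-2 depleted larvae and 38.4, 54.7, 34.9 and 25.9 CPM in GRWD-1 depleted larvae, which overlapped (0.65, ± 0.105 standard error, edgeR adjusted p = 0.000108). The lower ones were the kvs-3 region, one at F46C5.1 on II (-0.39, edgeR adjusted p = 0.0282) and one over acs-2 on V, an acyl-CoA synthetase gene of fatty acid oxidation. The acs-2 region, from 15566279 to 15570001, had 262, 341, 252 and 245 CPM in RPOA-2 depleted larvae and 356, 468, 436 and 348 CPM in GRWD-1 depleted larvae, with no overlap (-0.44, ± 0.0774 standard error, edgeR adjusted p = 0.000781). At an unadjusted p under 0.05 the share of center regions was 7.11% in this comparison, beside 7.09% of all regions. Between the undepleted strains 0 center regions were called by edgeR and 0 by DESeq2, where edgeR called 0.00343% of all regions, and 387 (3.92%) had an unadjusted edgeR p under 0.05, beside 4.06% of all regions.

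The other gene lists held 0 to 4 DARs each in a depletion. With 1.69% and 1.38% of all regions called, lists of this length hold few calls at the background share, and a count of 0 is no result about their genes. The 56 regions nearest to genes of cytosolic ribosomal proteins, the products whose assembly GRWD-1 serves, had none in either depletion, with medians of 0.011 and -0.064. The 26 regions nearest to genes of RNA polymerase I and ribosome assembly had 1, a decrease at ncl-1, a repressor of nucleolar size, upon RPOA-2 depletion (-0.29, edgeR adjusted p = 0.0157). Mitochondrial ribosomal protein genes had 28 regions and 1 decrease upon GRWD-1 depletion, nuclear hormone receptors 118 regions with 1 decrease upon RPOA-2 depletion and 2 increases upon GRWD-1 depletion, homeobox genes 32 with 1 increase upon RPOA-2 depletion, and C-type lectins 51 with none. The 37 regions nearest to chaperone and oxidative stress genes had 1 increase, at sod-4, an extracellular superoxide dismutase, and 1 decrease, at hsp-4, the BiP chaperone of the endoplasmic reticulum, both upon GRWD-1 depletion. That list was made by gene name and does not hold F44E5.4 and F44E5.5, whose shared region increased upon RPOA-2 depletion. Of 94 regions nearest to tRNA genes 1 decreased upon RPOA-2 depletion and 1 increased and 3 decreased upon GRWD-1 depletion, and of 150 nearest to snoRNA genes 3 increased upon RPOA-2 depletion and 1 decreased upon GRWD-1 depletion.

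DARs of one direction lay next to each other more often when they decreased. Of the 141 regions decreased in either depletion 65 (46.1%) had another decreased region within 10 kb, in 26 runs of which 9 had 3 or more. Of the 145 increased in either, 19 (13.1%) lay in 8 runs. The longest decreased run held 5 of the 14 regions between 8651115 and 8668287 on V, at ZC190.4, and another with 4 of 9 on II, from 8733156 to 8751690, began at rol-6. The only increased run of 4 was that of fdgt-2 and F14E5.8. Adjacent regions can be parts of 1 accessible stretch that the peak caller divided, as the run at metr-1, the methionine synthase gene, with 3 regions within 2.95 kb on II, and the difference between the 2 shares was not tested. Runs were counted in the centers alone, so whether the arms or the whole series have the same shares is not known.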

How the data were processed

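ATAC-seq was performed by the authors on L1 larvae of 4 C. elegans strains, with 4 replicates each and 1 replicate of each strain processed together in each of 4 batches. After trimming, alignment to WBcel235 with Bowtie2 and removal of mitochondrial and low-quality alignments, the authors ran MACS2 on each library, combined the peaks and deposited whole-number counts of reads per merged peak from featureCounts 2.0.1, without normalization.

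Here, all 16 libraries were fitted together in R 4.3.3 with edgeR 4.0.16 (quasi-likelihood test, TMM, Benjamini-Hochberg over 29131 regions; filterByExpr removed 0). The design held genotype and 2 factors of unwanted variation, computed after the RUVg method from 13897 control peaks (47.7%) whose adjusted p was at least 0.75 in a DESeq2 1.42.0 comparison of RPOA-2 depleted with undepleted larvae, as in the study's methods. Standard errors are the log2 fold change over the square root of the F statistic. The biological coefficient of variation was 8.14%. No pair of libraries of 1 strain agreed within counting error (chi-square per degree of freedom of 1.86 to 11.8 over 24 pairs). Shares of reads were compared by exact permutation tests over libraries. The fit was tested on simulated data.

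A region belongs to the gene with the nearest transcript 5′ end in the Ensembl annotation of WBcel235, piRNA genes left out, which are dense on IV. Regions were named by level, length, size of change among DARs whose groups did not overlap, or gene list. At a region named by size of change in a depletion, the lack of overlap in that depletion was fixed by the choice. Those in runs of neighbouring DARs, in the comparison of fits and where the text says so were picked with their values known. The center regions and gene lists were chosen with earlier results of these data known. Genome sequence was not used here. The alternatives were 0 or 3 factors, other control peaks, the replicate number in the fit, DESeq2, another normalization or filter, other denominators of the shares, and leaving out each library.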

Additional observations from a re-analysis of the deposited data

Results flagged for a closer look

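In 8 of the 96 groups of 4 libraries examined at the described regions, 1 library stood far from the other 3, by the gap to its neighbour relative to the range of the group. Chance gives about 1 in 20 such groups. At the region over the end of col-10 (17.36 CPM) and at B0507.6 on V (11.86 CPM), the high library was RPOA-2 depleted replicate 4. At the sqt-1 promoter RPOA-2 depleted replicate 1 was the lowest, with 8.976 CPM, beside 3 values between 10.3 and 10.4. At fdgt-2 the high library was GRWD-1 depleted replicate 4, with 98.46 CPM. At the kvs-3 region 2 groups near 0 were marked by single libraries with a few reads, RPOA-2 depleted replicate 3 (0.8353 CPM) and GRWD-1 undepleted replicate 1 (0.2762 CPM). GRWD-1 undepleted replicate 2 was the highest at acs-2 (531.6 CPM), and RPOA-2 undepleted replicate 2 at F46C5.1 (101.8 CPM). The effects of the 2 depletions differed at the kvs-3 region, with an edgeR adjusted p of 1.67e-06 for the difference of effects. That region entered the peak set through the GRWD-1 depleted libraries, so the p-value is no separate support.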

How the results depend on the processing

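The counts of center DARs depended on the factors and on single libraries. Without factors 5 regions increased and 9 decreased for RPOA-2, 5 and 14 for GRWD-1, and 1 differed between the depleted strains. With 3 factors GRWD-1 gave 19 and 26, and the depleted strains differed at 3. With control peaks from the GRWD-1 comparison RPOA-2 gave 16 and 34, so that decreases outnumbered increases (32.0% increased, against 64.5%), GRWD-1 gave 31 increases, the depleted strains differed at 5 and the effects at 2. Leaving out 1 library at a time gave 6 to 198 increases and 9 to 72 decreases for RPOA-2, 9 to 77 and 32 to 108 for GRWD-1, 1 to 47 differences between the depleted strains and 0 to 3 between the effects, with most of the lowest counts without RPOA-2 depleted replicate 2 and the highest RPOA-2 increases without RPOA-2 depleted replicate 1 (198) or GRWD-1 depleted replicate 2 (183). The kvs-3 difference of effects was lost (0 calls) without RPOA-2 undepleted replicate 2. The replicate numbers were not taken to pair the libraries, since the labels do not say that a number marks a batch. Same-numbered libraries of different strains deviated together by r of -0.019 to 0.46, over 0.1 in 13 of 24 pairs. In replicates 1 and 2 every such pair had r of 0.13 to 0.46, and in replicates 3 and 4 r was -0.019 to 0.11. Between different numbers r went down to -0.40. Whether the numbers mark the processing batches was not tested. With a replicate block added to the factors RPOA-2 increases numbered 71 and differences between the depleted strains 5. With the replicate block in place of the factors there were 145 increases and 40 decreases for RPOA-2, 29 increases and 56 decreases for GRWD-1, 7 differences between the depleted strains and 7 between the undepleted ones, and 54 of the 66 described changes kept their call, where 30 did without factors and block. By replicate number the center share of reads differed for RPOA-2 by 0.535, 0.373, 0.214 and 0.5 percentage points (p = 0.125, exact test over flipped signs, the smallest p that 4 pairs can give) and for GRWD-1 by -0.165, -0.424, 0.141 and -0.247 (p = 0.25, the same exact test). DESeq2, RLE normalization and other filters kept all counts within 1.5 times. Of 1635 refits of the 66 described changes, 1374 kept their call, 261 lost it and 0 turned their direction. These include 66 from the fit without a filter, which repeats the main fit because filterByExpr removed 0 regions. The fewest kept their call without factors, 30 of 66, and without RPOA-2 depleted replicate 2, 31 of 66. The small differences in read shares, none past a test, changed sign: that for RPOA-2 was -0.00949 percentage points without regions of 2 kb or more, and that for GRWD-1 ran from -0.323 to 0.0329 over left-out libraries. The center over arm ratios for RPOA-2 turned to -0.00681 on II, 0.00506 on IV and -0.00313 on V without regions of 2 kb or more, and over left-out libraries ran from -0.0293 to 0.028 on II, -0.0168 to 0.0117 on IV and -0.0259 to 0.0295 on V, and for GRWD-1 on IV from -0.0357 to 0.00129. The causes of these changes were not tested. Short regions with few reads limit the calls: the smallest center region held 308 reads over all 16 libraries.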
